A study of Mus musculus with 5 samples.

Results

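The liver transcriptome of mice that received all-trans retinoic acid while on a high-fat, high-fructose (HFHFr) diet was set beside that of untreated mice. The comparison uses the array titled HFHFr-FA and the array titled Control, 2 of the 5 arrays of the study. All animals were male C57BL/6J mice, an inbred laboratory strain, 25 weeks old. Control mice were untreated. HFHFr-FA mice ate the HFHFr diet for 16 weeks and then, for 4 more weeks, the HFHFr diet with all-trans retinoic acid added. The labels describe them as free of insulin resistance with a slightly fatty liver. The other arrays, shown only to place the levels, were HFHFr-F (20 weeks of the diet, severe insulin resistance), HFHFr-N (16 weeks of the diet and 4 weeks of normal diet, insulin resistant) and HFHFr-NA (as HFHFr-N with retinoic acid in the normal diet, no longer insulin resistant). RNA from liver biopsies of 5 mice was pooled for each group and hybridised in 1 colour to 1 Agilent whole mouse genome array. There are therefore no replicates: no test between the groups was run, the spread between mice is unknown, and "higher" and "lower" describe these pools. HFHFr-FA differed from Control in both diet and retinoic acid, and it was hybridised on a slide of its own, so diet, retinoic acid and slide cannot be told apart in any value of this comparison.

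All-trans retinoic acid is the form in which vitamin A acts on genes. It binds retinoic acid receptors (RARs), which sit on DNA with retinoid X receptors, often at direct repeats of a short half-site, and switch on target genes. Among these targets are Cyp26 enzymes, which oxidise retinoic acid and so limit its own level. The liver stores most of the body's vitamin A as retinyl esters in stellate cells, while its hepatocytes make and burn fat, break down drugs with cytochromes P450 and secrete most plasma proteins.

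The start regions of the retinoid genes on which the comparison turns are printed here because Cyp26a1 and Rarb hold the kind of repeat that RARs are known to bind and Cyp26b1 does not hold it in the same window. Each is the stretch of 250 bases before the RefSeq start of the gene, in build GRCm38.p6 and on the gene's strand. Capitals mark a direct repeat of half-sites spaced by NNNNN, read on either strand. A half-site was AGGTCA or the variant AGTTCA, or one of these with G as its leading letter (GGGTCA and the variant GGTTCA). The regions are chr19:37697558-37697807 on the plus strand for Cyp26a1, chr14:16575477-16575726 on the minus strand for Rarb and chr6:84593811-84594060 on the minus strand for Cyp26b1.
Cyp26a1: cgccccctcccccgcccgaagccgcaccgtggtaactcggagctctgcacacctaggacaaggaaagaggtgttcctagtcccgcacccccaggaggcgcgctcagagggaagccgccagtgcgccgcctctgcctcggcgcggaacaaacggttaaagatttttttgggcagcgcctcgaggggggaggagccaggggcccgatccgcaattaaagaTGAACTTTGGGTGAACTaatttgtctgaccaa
Rarb: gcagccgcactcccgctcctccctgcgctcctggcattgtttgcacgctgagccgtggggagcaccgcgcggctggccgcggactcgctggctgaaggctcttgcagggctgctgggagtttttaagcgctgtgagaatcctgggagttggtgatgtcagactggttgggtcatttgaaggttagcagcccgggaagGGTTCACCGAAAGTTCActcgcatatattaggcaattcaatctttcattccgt
Cyp26b1: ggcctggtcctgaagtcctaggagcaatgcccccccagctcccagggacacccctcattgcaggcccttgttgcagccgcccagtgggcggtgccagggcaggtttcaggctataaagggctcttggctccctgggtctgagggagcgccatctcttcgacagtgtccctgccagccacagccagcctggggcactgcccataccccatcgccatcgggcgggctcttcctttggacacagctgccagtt
The repeat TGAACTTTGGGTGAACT of Cyp26a1 begins 32 bases before the start and the repeat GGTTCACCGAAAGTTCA of Rarb begins 53 bases before it. Such a repeat was found in 29 of 32851 windows of this length (0.0883%), which belong to 28 genes. Of the 25 listed retinoid genes with a window, these were the 2 that held one. A match describes the letters of a window and is not evidence of binding, and no match says only that these letters are not in that window. Of the genes with a repeat, 5 were measured here, of which 0 were 2-fold higher and 1, Cyp26a1, was 2-fold lower. Over all measured genes 4.47% were 2-fold higher and 1.95% 2-fold lower, and 5 genes are too few to set against these shares.

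Among named genes measured on both arrays, the acute phase proteins Saa1, Saa2 and Saa3, the female-type cytochromes Cyp2b9 and Cyp2b13 and the stress-induced transcription factor Atf3 stood highest over Control. The drug-metabolising cytochromes Cyp3a11, Cyp3a16, Cyp3a44 and Cyp3a41a and the fat-desaturating enzyme Scd1 stood lowest among them. Of 14792 genes measured on at least 1 of the arrays, 661 (4.47%) were at least 2-fold higher in HFHFr-FA and 288 (1.95%) at least 2-fold lower, so that 6.42% were 2-fold apart in either direction. Of these 2-fold genes 69.7% were higher. At least 4-fold differences were found for 48 higher and 29 lower genes, and at least 8-fold differences for 10 and 6. Levels are given as relative log2 signal, in which 0 is the 75th percentile of the non-control spots on that array and a step of 1 is a doubling. They can be compared between arrays for one gene and not between genes. A ratio is the HFHFr-FA level minus the Control level, and its median over all genes was -0.07. Where a gene was well above background on 1 array alone, 1019 genes in HFHFr-FA and 279 in Control, the ratio is a bound, at least as far from 0 as printed. The shares printed above are the background against which the counts of each gene list are to be read. With another background correction and scaling (normexp and quantile normalization, whose ratios are called normexp ratios here) 195 genes were higher and 77 lower.

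**Figure D1:**
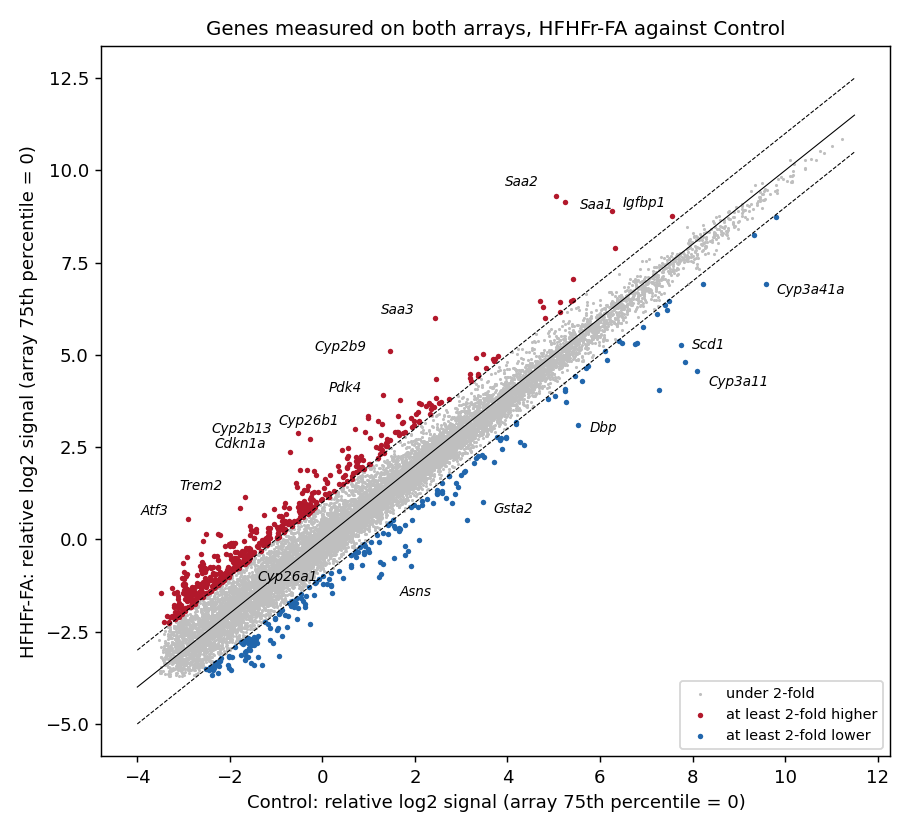
Relative log2 signal of each gene measured on both arrays, Control on the horizontal and HFHFr-FA on the vertical axis; the solid line marks equal levels and the dashed lines 2-fold. The 495 genes at least 2-fold higher (red) include Saa2 and Cyp2b9 and the 213 at least 2-fold lower (blue) include Cyp3a11 and Scd1.

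Of the spots, 46.7% were well above background in Control and 49.4% in HFHFr-FA, and 0 spots were saturated. Before scaling, that percentile was a processed signal of 173.9 in Control and 212.2 in HFHFr-FA. For probes spotted 10 times, the median standard deviation over spots was 0.0860 (log2) in Control and 0.0659 in HFHFr-FA, or 0.108 for a ratio of single spots. This covers printing and scanning within an array and nothing between mice. The pools carried the liver's defining transcripts: 14 of 14 hepatocyte markers on the array were well above background in both, with albumin (Alb) at 10.66 in Control and 10.30 in HFHFr-FA.

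Genes that handle retinoic acid differed from Control in both directions. Cyp26b1, a retinoic acid oxidase (probe at chr6:84521952-84522011, mm9), stood at 0.93 in Control and 2.90 in HFHFr-FA, 3.93-fold higher. On the other arrays it was at 0.36 in HFHFr-N, 3.42 in HFHFr-NA and 0.78 in HFHFr-F, so that the 2 pools that received retinoic acid were the highest. Its relative Cyp26a1 (chr19:37775566-37775625, mm9) had the opposite order, 0.62 in Control and -0.75 in HFHFr-FA, 2.57-fold lower. Its level was 0.54 in HFHFr-N, 1.94 in HFHFr-NA and -1.86 in HFHFr-F, so HFHFr-FA lay between HFHFr-F and Control. Rarb, the RAR whose own gene is a retinoic acid target (chr14:17263511-17263570, mm9), was at -0.32 in Control and 0.34 in HFHFr-FA, a ratio of 0.66 that did not reach 2-fold. Its probe was spotted 10 times, with standard deviations over spots of 0.0427 and 0.0331. HFHFr-F without retinoic acid was as high, at 0.42, and HFHFr-NA was highest, at 1.25.

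Other retinoid genes differed in both directions. Lrat, which esterifies retinol for storage in stellate cells, had a ratio of 0.88. Aldh1a3, an enzyme that makes retinoic acid, was measured in HFHFr-FA and not in Control, with a ratio of at least 1.35. The receptor gene Rarg was dim, at -2.34 in Control and -3.49 in HFHFr-FA, a ratio of -1.14. The retinoid list had 26 measured genes, of which 3 were higher and 2 lower, and its median was 0.15. Of the 26, 24 were measured on both arrays, and the others, measured in HFHFr-FA alone, could not be lower. The normexp ratios of Aldh1a3 (0.35) and Rarg (-0.41) were under 2-fold, while those of Cyp26b1 (1.92) and Cyp26a1 (-1.04) were past it.

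Enzymes and regulators of fat synthesis did not move together. Scd1, the desaturase that makes oleic from stearic acid (chr19:44469387-44469446, mm9), was at 7.74 in Control and 5.26 in HFHFr-FA, 5.58-fold lower. HFHFr-NA, the other pool given retinoic acid, was also low, at 5.64, while HFHFr-N stood at 7.96 and HFHFr-F at 8.29. Thrsp, a regulator of fat synthesis, was higher than in Control, at 2.92 against 1.63, and far under the 6.69 of HFHFr-F. Srebf1, the transcription factor of the lipogenic genes, stood at 3.57 in Control and 4.29 in HFHFr-FA, a ratio of 0.72. Fasn, fatty acid synthase, had a ratio of 0.32, and Acacb, the acetyl-CoA carboxylase whose product restrains fat oxidation, one of 1.19. G6pdx, which supplies NADPH, was at -1.17 in Control and -0.07 in HFHFr-FA, with a normexp ratio of 0.65. Elovl6, which lengthens the products of Fasn, had a ratio of -0.88 and Me1, malic enzyme, one of -0.70. The list of 25 measured synthesis genes held 3 higher members and 1 lower, Scd1, with a median of 0.10.

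Lipid droplet genes were higher in 5 of 23 cases and lower in 0, with a median of 0.22. The most distant was Osbpl3, an oxysterol-binding protein, at -1.79 in Control and 0.85 in HFHFr-FA, a ratio of 2.65. It was higher than in Control on all the diet arrays, at 0.62 in HFHFr-N, 0.61 in HFHFr-NA and 1.72 in HFHFr-F, and the normexp ratio was 1.70. Cidea, a droplet surface protein that promotes droplet growth, was at 3.73 in Control and 4.88 in HFHFr-FA, under the 5.96 of HFHFr-F. Plin4, a droplet coat protein, had a ratio of 1.60, and Fabp4, the fatty acid carrier of fat cells and macrophages, one of 1.37. Hilpda, which restrains lipolysis, had a ratio of 1.12. The spots around the Plin4 and Hilpda probes also had medians above 0.5. Cidec, related to Cidea, had a ratio of 0.87, and the fat-storing nuclear receptor Pparg one of -0.08. Both measured adipocyte markers, Fabp4 and Cfd (1.18), were higher, while Adipoq, Lep, Plin1 and Retn were not well above background on either array. Whether fat cells in the biopsies bear on these values was not tested.

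In cholesterol synthesis 3 of 25 genes were higher and 0 lower, and the median was 0.38. Sqle, squalene epoxidase, stood at -0.34 in Control and 1.88 in HFHFr-FA, close to the 2.01 of HFHFr-F. Mvd had a ratio of 1.30 and Fdps one of 1.09, both enzymes on the way from mevalonate to squalene. Their normexp ratios were 0.71 and 0.99. Srebf2, the transcription factor of the pathway, had a ratio of 0.72.

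Genes of fasting and fat burning were split. Pdk4, the kinase that shuts pyruvate out of oxidation, was at 1.31 in Control and 3.91 in HFHFr-FA, the highest of the arrays, with HFHFr-F at 2.34. Fgf21, a fasting hormone of the liver, was also highest in HFHFr-FA, at 3.71 against 2.51 in Control and 1.67 in HFHFr-F. Ucp2, a mitochondrial carrier, had a ratio of 1.20. The probes of Fgf21 and Ucp2 lay near at least 2 spots more than 4-fold apart, and the normexp ratio of Ucp2 was 0.64. The peroxisomal enzyme Ehhadh was lower, with a ratio of -1.11 and a normexp ratio of -0.98. Cpt1a, which carries fatty acids into mitochondria, was at 6.42 in Control and 6.49 in HFHFr-FA, with spot standard deviations of 0.0601 and 0.0326. The receptor Ppara had a ratio of 0.18 and Cyp4a14, a classical PPARA target, one of -0.45. Of the 28 PPARA and fat oxidation genes 3 were higher and 1 lower; the median was -0.20, or 0.04 over the normexp ratios and -0.03 after cyclic loess.

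Igfbp1, a secreted binder of insulin-like growth factors that insulin represses (chr11:7102442-7102501, mm9), was at 6.26 in Control and 8.90 in HFHFr-FA, 6.23-fold higher. HFHFr-FA was above all the other arrays, which were at 6.61 (HFHFr-F), 6.45 (HFHFr-NA) and 4.78 (HFHFr-N). Ppp1r3g, a subunit that steers protein phosphatase to glycogen, had the same shape, at 3.29 in HFHFr-FA and between 0.21 and 1.19 elsewhere. Igfbp2, low in HFHFr-F at 4.77, was at 7.23 in HFHFr-FA and 7.61 in Control, a ratio of -0.38. Igf1 had a ratio of -0.33. In the IGF list 1 of 12 genes was higher and 0 lower, and in the list of gluconeogenesis and glycogen 1 of 18 was higher and 0 lower, with medians of -0.23 and -0.23. The glycolysis list had 3 of 24 genes higher, among them Hk3 (1.27) and Pkm (1.18), 0 lower and a median of -0.19. Hk3 and Pkm, isoforms typical of cells other than hepatocytes, had normexp ratios of 0.61 and 0.67.

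Core insulin signalling genes had 0 of 23 past 2-fold, beside 6.42% of all genes, and a median of -0.02. Pik3r1, a regulatory subunit of phosphoinositide 3-kinase, was the lowest at -0.96 and Trib1, a pseudokinase, the highest at 0.81. The insulin receptor Insr had a ratio of -0.27, Irs1 one of -0.35, Akt2 one of -0.22 and Foxo1, which insulin keeps out of the nucleus, one of 0.23. Of 24 genes of leptin receptor, STAT and SOCS signalling 1 was higher and 0 lower, with a median of 0.11. The higher one was Cish, a feedback inhibitor of cytokine receptors, at 0.58 in Control and 2.04 in HFHFr-FA. Its relatives had ratios of 0.84 (Socs3) and 0.47 (Socs2), and Stat3 one of 0.57. Lepr, the leptin receptor, was dim, at -2.80 in Control and -2.14 in HFHFr-FA. HFHFr-NA was at -2.99, and on the HFHFr-N and HFHFr-F arrays it was not well above background. Its ratio of 0.66 came from a probe near 2 spots more than 4-fold apart.

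**Figure D2:**
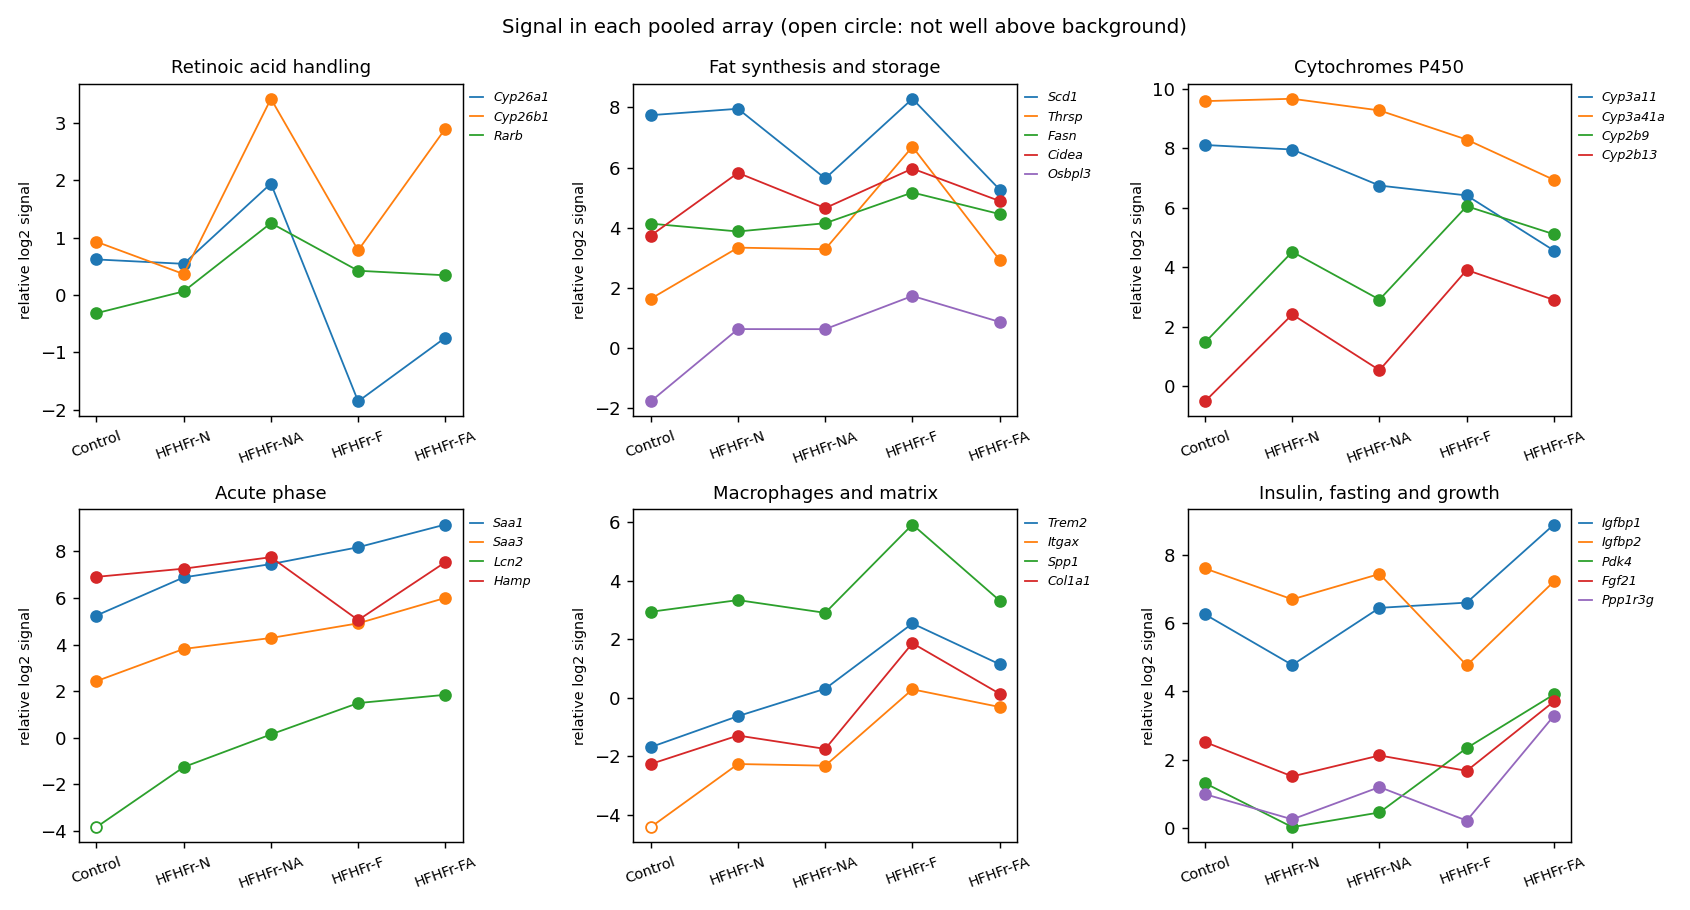
Relative log2 signal of 25 selected genes on each of the 5 arrays (1 pool of 5 mice each), in panels by function; lines join the values of a gene and carry no order, and open circles mark signal not well above background. Cyp26b1 is high and Scd1 low in HFHFr-NA and HFHFr-FA, Saa1 and Igfbp1 are highest in HFHFr-FA, and Thrsp, Trem2 and Spp1 are highest in HFHFr-F.

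Of 28 measured genes of a list of drug and steroid P450s and their receptors 7 were lower, 0 higher and 21 under 2-fold, with a median of -0.44. The list does not hold Cyp2b9 and Cyp2b13, family members with ratios of 3.64 and 3.41, and 2 of its genes were measured in Control alone and could not be higher. Of the lower genes 5 were Cyp3a members. Cyp3a11, the main drug-oxidising P450 of mouse liver (chr5:146672058-146673925, mm9), stood at 8.11 in Control and 4.56 in HFHFr-FA, 11.7-fold lower. HFHFr-FA was the lowest of the arrays, below HFHFr-F (6.41), HFHFr-NA (6.74) and HFHFr-N (7.95). Its relatives Cyp3a16, Cyp3a44 and Cyp3a41a had ratios of -3.21, -3.05 and -2.65, and Cyp3a25 one of -1.46. These genes are close copies on chromosome 5, and signal shared between them was not separated. Cyp2r1, a vitamin D hydroxylase, had a ratio of -1.24, and Cyp2c55 was measured in Control alone, with a bound of -1.66 and a normexp ratio of -0.40. The alcohol-oxidising Cyp2e1 had a ratio of 0.11, Cyp3a13 one of 0.31 and Cyp1a2, which oxidises caffeine, one of -0.70. The nuclear receptors that drive these genes had ratios of 0.10 (Nr1i2) and -0.11 (Nr1i3).

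Conjugating enzymes had a similar spread, with 13 of 34 lower, 1 higher and a median of -0.45. Gsta2, a glutathione transferase, was at 3.46 in Control with a ratio of -2.46; HFHFr-NA was also low, at 1.40, and HFHFr-F stood at 3.75. Other glutathione transferases among the lower genes were Gstm4 (-1.42), Gsta4 (-1.28), Gstm6 (-1.22), Gstm2 (-1.13), Gstm1 (-1.07), Gsta1 (-1.05) and Gstm3 (-1.03). Ces2a, a carboxylesterase, had a ratio of -1.79, and Ephx1, microsomal epoxide hydrolase, one of -1.17. Ugt2b35, Ugt2b36 and Ugt2b5, glucuronosyltransferases, lay between -1.15 and -1.05. The gene that was higher, Hmox1 or haem oxygenase, is known from macrophages as well as from the oxidative stress response; it was at 2.02 in Control, 3.40 in HFHFr-FA and 3.73 in HFHFr-F. Members of the Gsta, Gstm and Ugt2b families resemble each other closely, and any signal shared between them was not separated.

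Of 22 measured genes with male-biased expression in mouse liver 7 were lower and 1, C4a (1.05), was higher, with a median of -0.49. Hsd3b5, a steroid dehydrogenase of male liver, was at 2.67 in Control and 1.12 in HFHFr-FA, and the HFHFr-F array did not measure it above background. Its close copy Hsd3b4 stood at 2.86 in Control, -3.08 in HFHFr-F and 1.24 in HFHFr-FA, so both lay much nearer to Control than to HFHFr-F. Ugt2b1 (-1.63), Ugt2b38 (-1.47), Cyp4a12a (-1.29) and its copy Cyp4a12b (-1.15) were lower, and so was Gstp1 (-1.07). The transporter Slco1a1 was at 2.67 in Control, 2.29 in HFHFr-FA and -0.62 in HFHFr-F. Female-biased genes went both ways, 4 higher and 3 lower of 21, with a median of -0.03. Cyp2b9 (chr7:26995607-26995666, mm9) was 12.5-fold higher, with Cyp2b13, its close copy, at a ratio of 3.41. Cyp2b13 was at -0.52 in Control and 2.89 in HFHFr-FA, with HFHFr-F higher still at 3.90, HFHFr-N at 2.41 and HFHFr-NA at 0.53. The fatty acid transporter Abcd2 (1.07) and Slc22a26 (1.29) were the other higher members. The lower ones were Cyp3a16, Cyp3a44 and Cyp3a41a, whose signals were not separated from each other or from that of Cyp3a11.

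Among 26 bile acid genes 3 were lower and 0 higher, and 24 of the ratios were under 0 (median -0.39). Of the 26, 25 were measured on both arrays, and the other, measured in Control alone, could not be higher. The sinusoidal transporter Slco1a4 had a ratio of -1.34. Nr0b2, the repressor that bile acids induce, had a ratio of -1.28, from a probe near 2 spots more than 4-fold apart. Klb, the co-receptor through which gut hormone signals reach hepatocytes, had a ratio of -1.02, which was under 2-fold with several scalings (-0.91 after cyclic loess). Cyp7a1, which sets the pace of bile acid synthesis, was at 2.26 in Control, 3.31 in HFHFr-F and 1.33 in HFHFr-FA, the lowest of the arrays and just short of 2-fold under Control. The exporter Abcb11 had a ratio of -0.76 and the receptor Nr1h4 one of -0.40. In the lipoprotein list 2 of 23 genes were lower, the sorting receptor Sort1 (-2.11, with a normexp ratio of -0.93) and Angptl8 (-1.19), an inhibitor of lipoprotein lipase. Apob, the structural protein of very-low-density lipoprotein, had a ratio of -0.80 and Apoa4 one of 0.94.

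Amino acid metabolism leaned low. Of 39 urea cycle and amino acid catabolism genes 4 were lower and 0 higher, and 32 of 39 ratios were under 0, with a median of -0.42, or -0.27 after cyclic loess. Oat, ornithine aminotransferase, was at 8.22 in Control and 6.92 in HFHFr-FA. Csad (taurine synthesis), Sds (serine breakdown) and Hgd (tyrosine breakdown) had ratios of -1.05, -1.03 and -1.02, all under 2-fold after cyclic loess, and the spots around the Hgd probe had a median ratio of 0.71. Cps1, the entry enzyme of the urea cycle, had a ratio of -0.48. Amino acid response genes differed among themselves, 4 higher and 2 lower of 21 with a median of 0.18. Of the 21, 18 were measured on both arrays, and the others, measured in HFHFr-FA alone, could not be lower. Asns, asparagine synthetase, stood at 1.27 in Control and -0.95 in HFHFr-FA, and Cth, which makes cysteine, had a ratio of -1.17. Chac1, which degrades glutathione, was higher by 2.37, beside spots with a median of 0.55, Nupr1, a stress-induced chromatin protein, by 1.92, the stress hormone Gdf15 by 1.45 and Ddit4, an inhibitor of mTOR signalling, by 1.13. Beside these genes, the general hepatocyte markers had ratios below 0 in 14 of 14 cases, with a median of -0.28. That median was -0.10 both after cyclic loess and with normexp. The summed level of these markers (log2 of the sum of the relative signals) was 12.9 in Control and 12.6 in HFHFr-FA. Of 13 periportal markers Etnppl (-1.56) and Sds were lower, with a list median of -0.40, and of 13 pericentral markers 1, Oat, was lower, with a list median of 0.00. Less hepatocyte RNA in the pool and less RNA of these genes in each hepatocyte cannot be told apart in bulk tissue, and the part of the markers in the results was not tested.

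Acute phase genes, plasma proteins and defence proteins that hepatocytes make on inflammatory signals, were higher in 12 of 28 cases and lower in 0, with a median of 0.73. Saa2 (chr7:54009535-54009594, mm9) stood at 5.05 in Control and 9.29 in HFHFr-FA, 19.0-fold higher. The other arrays lay between, HFHFr-N at 6.88, HFHFr-NA at 7.48 and HFHFr-F at 8.16. Saa1, a near-identical copy whose signal was not separated from it, had a ratio of 3.90. Saa3, the serum amyloid made also by macrophages, was at 2.43 in Control and 6.00 in HFHFr-FA. Lcn2, lipocalin 2, which starves bacteria of iron (chr2:32241037-32241281, mm9), was not well above background in Control and was at 1.85 in HFHFr-FA, at least 41.6-fold higher; its normexp ratio was 3.30. All these levels were highest in HFHFr-FA, above HFHFr-F as well. Smaller ratios were found for Orm3 (1.88), the metallothioneins Mt2 (1.57) and Mt1 (1.53), the interleukin 1 antagonist Il1rn (1.54), Steap4 (1.48), the protease inhibitor Serpina3n (1.28) and Lrg1 (1.21), with Saa4 the remaining member past 2-fold. The iron hormone hepcidin, Hamp, was at 6.91 in Control, 5.05 in HFHFr-F and 7.54 in HFHFr-FA, a ratio of 0.63. Complement and coagulation factors, also hepatocyte products, had 1 lower member of 29 and 0 higher. The lower gene was Klkb1, plasma kallikrein, just past 2-fold with a normexp ratio of -0.84.

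Inflammatory genes had a median ratio of 1.05, and 14 of 24 were higher and 1 lower; 4 of the 24 were measured in HFHFr-FA alone and could not be lower. Ccl2, which attracts monocytes, was at -2.58 in Control, 0.72 in HFHFr-F and -0.05 in HFHFr-FA. The T cell chemokine Ccl5 had a ratio of 2.31, and Ccl4 was at least 12.3-fold higher. The neutrophil chemokine Cxcl1 was at -2.61 in Control and -0.61 in HFHFr-FA. Ccl6 (1.85), the adhesion molecule Vcam1 (1.73), the endotoxin co-receptor Cd14 (1.42) and interleukin 1 beta, Il1b (1.32), followed. The B cell chemokine Cxcl13 was measured in Control alone, with a bound of -2.53. Normexp ratios were 1.35 for Ccl2, 1.78 for Ccl4, 0.91 for Cxcl1 and -0.85 for Cxcl13. The cytokine genes Tnf and Il6 were not well above background on either array. Of 32 interferon response genes 6 were higher and 0 lower, among them Oas1a (1.47), an antiviral sensor, and the median was 0.02. Ubd, a ubiquitin-like protein that inflammatory cytokines induce, was at -0.26 in Control, 4.29 in HFHFr-F and 2.71 in HFHFr-FA.

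Immune cell markers had list medians above 0. Some of these markers were measured in HFHFr-FA alone and could not be lower, namely 2 of 11 for lipid-associated macrophages, 2 of 10 for dendritic cells and MHC class II, 3 of 13 for T and NK cells and 4 of 6 for neutrophils. Kupffer cell and macrophage markers were above 0 in 16 of 16 cases, with 4 higher and a median of 0.87, and their summed level was 7.25 in Control, 8.25 in HFHFr-F and 8.15 in HFHFr-FA. The resident-cell genes Clec4f, Vsig4 and Timd4 had ratios of 0.80, 0.66 and 0.21, and the general macrophage genes Cd68 and Ctss (cathepsin S) 1.26 and 1.20. Markers of lipid-associated macrophages, which take up lipid in fatty tissue, were higher in 5 of 11 cases, with a median of 0.98 and a summed level of 6.62 in Control, 7.77 in HFHFr-F and 6.82 in HFHFr-FA. Averaging all probes of each gene lowered that median to 0.41, and normexp to 0.59. Trem2, their lipid-sensing receptor (chr17:48491522-48491581, mm9), was at -1.68 in Control and 1.15 in HFHFr-FA, 7.10-fold higher, while HFHFr-F stood at 2.54, HFHFr-NA at 0.31 and HFHFr-N at -0.62. Itgax was measured in HFHFr-FA and not in Control, at least 9.33-fold higher; its normexp ratio was 1.56 and the mean of its probes gave 0.41. Cd63 (1.72) and Lgals3 (1.58), of lysosomes and phagocytosis, were higher too. Spp1, osteopontin, was at 2.94 in Control, 5.92 in HFHFr-F and 3.32 in HFHFr-FA, a ratio of 0.38, and Gpnmb was measured in HFHFr-FA alone with a bound of 0.98.

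Antigen-presenting genes were higher in 7 of 10 cases, with a median of 1.14; H2-Eb1, a class II chain, had a ratio of 1.14 and its master regulator Ciita one of 1.39 (normexp ratio 0.58), and the summed level was 4.46 in Control and 5.62 in HFHFr-FA. T and NK cell markers had 4 higher and 1 lower of 13, with a median of 0.89, led by Klrd1 (1.75) and Cd8b1 (1.71). Their normexp ratios were 0.74 and 0.87. With normexp the medians of the antigen-presenting and the T and NK lists were 0.73 and 0.44. The summed level of the T and NK markers went the other way from their median, 3.67 in Control and 3.29 in HFHFr-FA. The T cell genes Cd4, Cd3g and Cd2 were not well above background on either array. Neutrophil markers were measured in Control in 2 of 6 cases; the calprotectin subunit S100a9 had a ratio of 2.36 and its partner S100a8 one of at least 2.68, while Ly6g and Elane were not well above background on either array. The summed neutrophil level was 1.27 in Control and 3.53 in HFHFr-FA. B cell markers had a median of 0.41, or 0.01 with the mean of all probes and -0.05 without a detection filter, with Blnk, a B cell adaptor protein, at 2.10. Erythroid markers, a sign of blood in the tissue, had a median of -0.67 with 0 of 5 past 2-fold, and a summed level of 8.50 in Control and 7.84 in HFHFr-FA. More cells of a type and more RNA in each cell cannot be told apart here, and what share of the inflammatory and acute phase values the immune markers carry was not tested.

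**Figure D3:**
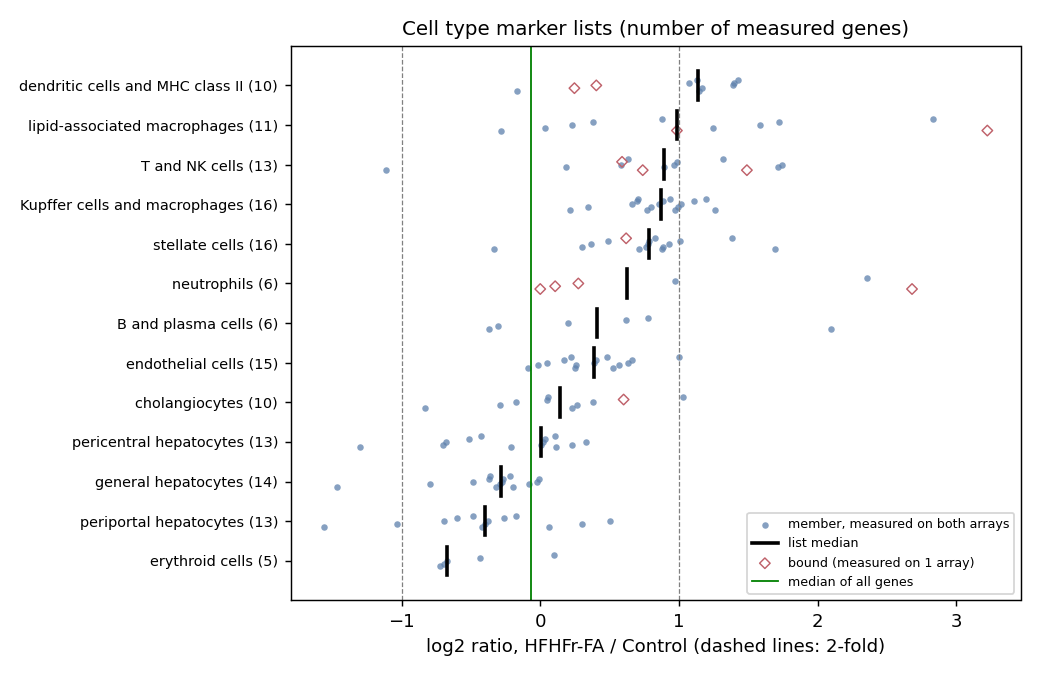
Log2 ratio of HFHFr-FA to Control for each measured member of the cell type marker lists with at least 5 measured genes; black bars are list medians, diamonds bounds, the green line the median of all genes and dashed lines 2-fold. Medians run from -0.67 for erythroid cells to 1.14 for dendritic cells and MHC class II.

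Matrix genes were above 0 in 25 of 27 cases, with 7 higher, 0 lower and a median of 0.74; 6 of the 27 were measured in HFHFr-FA alone and could not be lower. The matrix median was 0.49 with normexp. Col1a1, a chain of type I collagen (chr11:94813075-94813134, mm9), was at -2.26 in Control, 1.87 in HFHFr-F and 0.14 in HFHFr-FA, 5.28-fold over Control. Its probe had 10 spots, with standard deviations of 0.278 in Control and 0.0591 in HFHFr-FA, and the normexp ratio was 1.36. Col3a1 and Col1a2 had ratios of 1.58 and 1.36, which were 0.34 and 0.51 with the mean of all their probes. Eln, with a bound of 1.68, came from a probe near 2 spots more than 4-fold apart. Stellate cell markers, the cells that make this matrix and store vitamin A, had 3 higher and 0 lower of 16, and a median of 0.78. Of the 16, 15 were measured on both arrays, and the other, measured in HFHFr-FA alone, could not be lower. Among the higher markers were the platelet-derived growth factor receptors Pdgfrb (1.38) and Pdgfra (1.01). The spots around the Pdgfrb probe had a median ratio of 0.84, and 2 spots near it were at least 4-fold apart. Pdgfra was dim, at -2.58 in Control, and its ratio was 0.37 with normexp and 0.36 with the mean of its probes. The contractile gene Acta2, a sign of activated stellate cells, had a ratio of 0.71. Summed stellate marker levels were 7.35 in Control and 7.79 in HFHFr-FA. Of 15 endothelial markers 1, Gpr182, was just past 2-fold, with a list median of 0.39, and of 10 cholangiocyte markers 1, Anxa3 (1.03), was higher, with a list median of 0.14 that was -0.14 with the mean of all probes. Their part in the matrix values was not tested.

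Immediate early and growth arrest genes were above 0 in 18 of 19 cases, with 8 higher, 0 lower and a median of 0.86; 2 of the 19 were measured in HFHFr-FA alone and could not be lower. Atf3, a stress-induced transcription factor (chr1:192994547-192994606, mm9), was at -2.91 in Control, 0.52 in HFHFr-F and 0.56 in HFHFr-FA, a ratio of 3.46 (normexp ratio 2.09). Cdkn1a, the cell cycle inhibitor p21 (chr17:29237377-29237436, mm9), was at -0.69 in Control, 1.99 in HFHFr-F and 2.37 in HFHFr-FA, while HFHFr-N and HFHFr-NA lay at -2.07 and -1.29. Btg2, a growth suppressor, had a ratio of 2.05 and Gadd45g, a stress gene, one of 1.75. Myc, Egr1, Klf6 and Jun, transcription factors that respond within minutes to stimuli, had ratios of 1.52, 1.42, 1.35 and 1.14. Cell cycle genes had 1 higher, Mki67 at 1.21, and 1 lower, E2f1 at -1.29, of 25. The normexp ratios of Mki67 and E2f1 were 0.61 and -0.44. Of the 25, 22 were measured on both arrays, and the others, measured in HFHFr-FA alone, could not be lower.

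Secretory pathway and heat shock genes were close to Control. Derl3, which helps misfolded proteins leave the endoplasmic reticulum, was higher at 1.26 in HFHFr-FA against -0.45 in Control, the one 2-fold gene among 30 of the unfolded protein response, whose median was 0.15. Creld2, a secreted stress protein, was at 5.71 in Control, 4.93 in HFHFr-F and 6.66 in HFHFr-FA. Of 22 heat shock chaperones Hspb1 (1.13) and Hspa1a (1.11) were higher and 0 lower.

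Clock genes differed in both directions, 3 higher and 4 lower of 17. Dbp, a transcription factor with a daily rhythm (chr7:52965265-52965324, mm9), was at 5.54 in Control and 3.10 in HFHFr-FA, the lowest of the arrays, with HFHFr-F at 4.91, HFHFr-NA at 6.76 and HFHFr-N at 6.88. Nr1d1, the repressor also called Rev-erb alpha, stood at 0.08 in Control and was not well above background in HFHFr-FA, a bound of -3.81 (normexp ratio -1.84). Its relative Nr1d2 had a ratio of -1.03 and the clock repressor Ciart a bound of -1.13. On the other side stood Arntl, the clock activator that Nr1d1 represses, at -1.18 in Control and 0.19 in HFHFr-FA. Cry1, a repressor in the clock, had a bound of 1.14 (normexp ratio 0.50). Arntl was not well above background in HFHFr-N and stood at -3.32 in HFHFr-NA. The labels give no time of day for the biopsies.

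**Figure D4:**
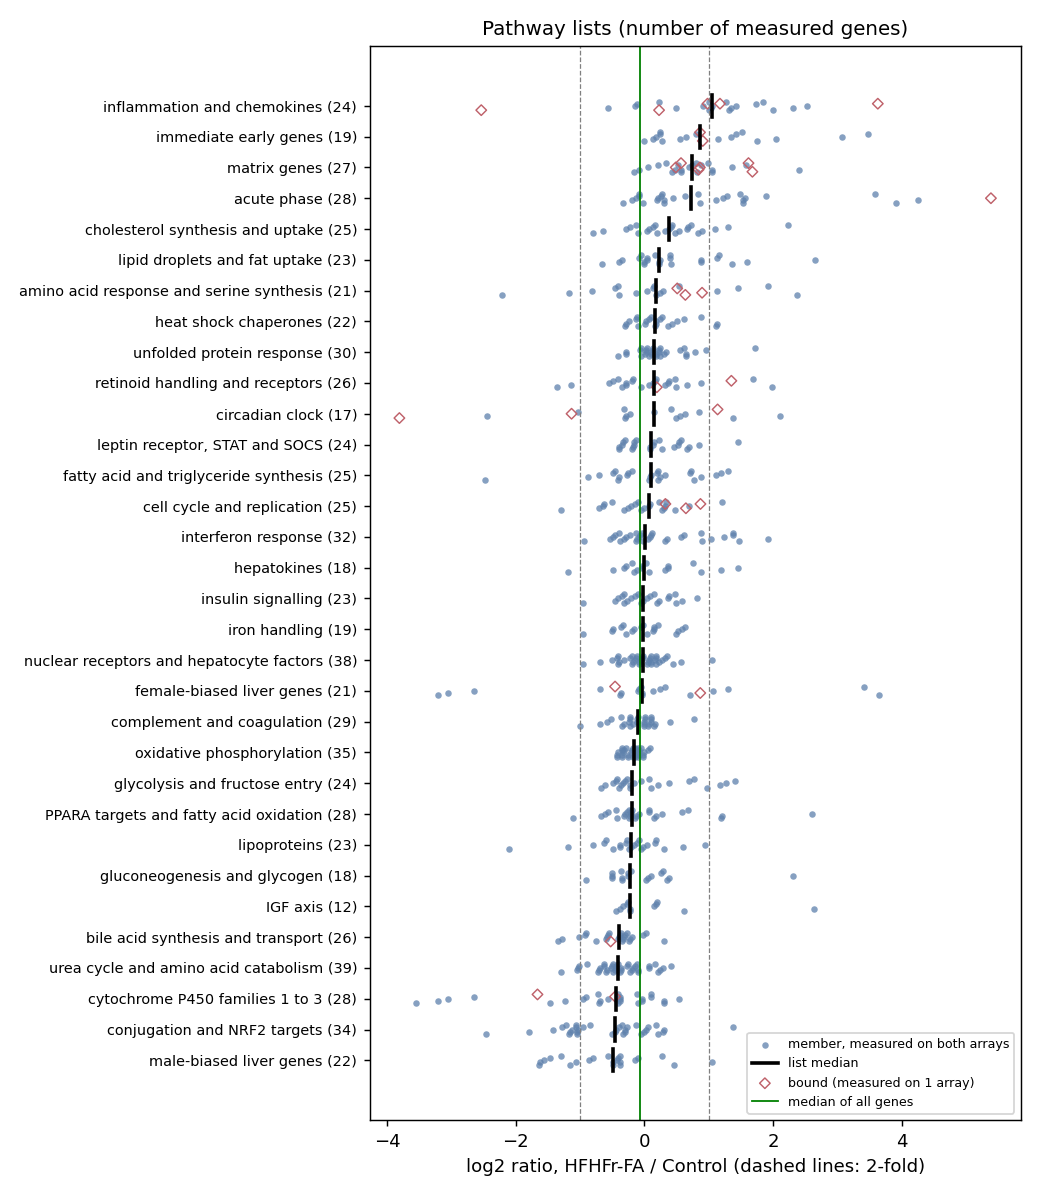
Log2 ratio of HFHFr-FA to Control for each measured member of the pathway lists, ordered by list median (black bars); diamonds are bounds, the green line is the median of all genes and dashed lines mark 2-fold. List medians run from -0.49 for male-biased liver genes to 1.05 for inflammation and chemokines.

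Several gene groups lay near Control. Oxidative phosphorylation subunits were all within 2-fold, 35 of 35, between -0.43 and 0.09, and 33 of these ratios were under 0. The list median of -0.16 was 0.01 after cyclic loess. Iron handling genes were within 2-fold in 19 of 19 cases, with the transferrin receptor Tfrc lowest at -0.96. Of 38 nuclear receptors and hepatocyte factors 1 was higher, the acute phase regulator Cebpd at 1.06, and 0 were lower. Among 18 hepatokines, hormones secreted by the liver, Gdf15 and Fgf21 were higher and Angptl8 lower. The medians of these last lists were -0.02, -0.02 and -0.01, near the -0.07 of all genes.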

How the data were processed

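Liver RNA pooled from 5 mice a group was labelled with Cy3, 1 array a group. The file headers name the software Feature Extraction 10.5.1.1 and give mm9 as the genome build of the array grid. The deposited processed signal is an intensity after background subtraction and detrending, with no scaling of one array to another. Mean and local background intensity were deposited as scanned. The authors' value table is a ratio of each processed signal to 1 constant per array (167 in Control, 204 in HFHFr-FA), uncentred, in the direction of the signal, as found by setting it against the scanner values. Medians of its columns were 0.0721 in HFHFr-FA, 0.0700 in Control, 0.0675 in HFHFr-F, 0.0744 in HFHFr-NA and 0.0738 in HFHFr-N, and the sources used here do not say how the constant was chosen.

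From the intensity of 43379 non-control spots (41174 probes), log2 signal minus each array's 75th percentile was computed. Outlier spots (89 in Control, 96 in HFHFr-FA) were left out and spots of a probe averaged. RefSeq accessions (table of GRCm38.p6, names only) named 24991 probes; 16183 kept the file's name, which can be old. Whether a probe lies in an exon or an untranslated region was not determined. The probe brightest over the 5 arrays stood for a gene (8587 of 28631 names had several). A gene entered when well above background on at least 1 array; a bound sets the bright signal against the higher of the dim probe's own signal and the array's lowest signal well above background, and is 0 where under 1-fold. Called means at least 2-fold.

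There were 49 lists, 32 of pathways and 17 of markers (1005 of 1019 symbols matched, 58 in more than 1 list). Markers of mesothelium (Msln -0.47), skeletal muscle (Mylpf -0.30) and exocrine pancreas (Amy2a5 -1.36, Ctrb1 0.11, Cel 0.66) had fewer than 5 measured genes. The rule for names took the 15 highest and 15 lowest ratios, 5 bounds each way, 5 members a list and a fixed set; other list members were named after their values were seen. Some listed genes are counted and not reported here by name. Members and lists were chosen with earlier results of these data known. Alternatives were other scalings, cyclic loess, normexp (offset 50) with quantile normalization, the authors' values, other filters and probe rules. Cyclic loess, normexp and quantile normalization were run with limma 3.58.1 in R 4.3.3. Only the ratio step was tried on simulated data with known fold changes, and the alternatives were not.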

Additional observations from a re-analysis of the deposited data

How the results depend on the processing

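Under the alternatives, the 661 higher and 288 lower genes became 195 and 77 with normexp background and quantile normalization, of which 180 and 77 were among the original ones; the cause was not tested. Without a detection filter they became 1447 and 1293 of 28629 genes, since signals below background then count. Under the other 9 settings the counts ran from 495 to 819 higher and from 213 to 324 lower. One of these settings, which left out genes whose probe lay near at least 2 spots more than 4-fold apart (594 and 270), was chosen after seeing the data. Of 137 2-fold genes named by the rule, all kept their direction under every setting that gave them a value, except Aldh1a3 and Cacnb2. Aldh1a3 and Cacnb2 came to 0 with the mean of all probes. Of the 137, 90 stayed past 2-fold with normexp and quantile normalization and 120 with the mean of all probes. List members named after their values were seen are not part of the 137. The cholangiocyte median of 0.14 turned to -0.14 with the mean of all probes, and the cause was not tested. No paired analysis was possible because each group is 1 array without a replicate number; for the same reason no replicate could be left out. Signal over background limits dim genes: 13494 of 14792 genes were measured on both arrays, and 166 of the higher and 75 of the lower genes are bounds.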

Other observations

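Some of the widest differences fell outside the described groups. Among genes measured on both arrays, Tiam2, an exchange factor for Rac, had a ratio of -2.16, Raet1e, a stress ligand of NK cells, one of -1.98, and Lrtm1 one of -2.01. Tcl1b3 (-2.20) and Tuba8 (-1.92) were under 2-fold with normexp and quantile normalization. Zfp982 had a ratio of -1.98, and its other probe gave -0.85. Some wide differences came from probes near at least 2 spots more than 4-fold apart. These were Slc26a10 (2.45) and the bounds of Adam8 (2.81), Ms4a12 (-3.03), Cacnb2 (-2.29) and Dyrk3 (-2.25). Of the 949 2-fold genes, 85 had such a probe. Leaving out all genes with such a probe kept 13979 of the 14792 genes, and 4.49% of all probes lay near such spots.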
